A study of Mus musculus with 10 samples.

Results

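The SR and hnRNP genes encode the main families of proteins that decide which exons and splice sites a nascent transcript uses, and their mRNA levels were compared between *Fndc1* knockdown and control cultures of a differentiating muscle cell line. Gene positions are those of the table, on GRCm39. Members were the rows of the deposited gene table that list a protein-coding transcript and carry a symbol made of Srsf and a number, or beginning with Hnrnp, without the pseudogene ending. This gave 31 of 55359 rows, 11 of them SR genes and 20 hnRNP genes. C2C12 is a mouse myoblast line that fuses into myotubes when serum is withdrawn. Its cells were transfected with 100 nM of a control siRNA (si-Control, 5 libraries) or of an siRNA against *Fndc1* (si-*Fndc1*, 5 libraries), and both groups were placed by the labels at 4 days of differentiation, although the series description speaks of a collection counted in hours from transfection. *Fndc1* encodes a secreted protein with fibronectin type III domains. All libraries came from this single line and no source ties a library to a separate culture, so the p-values measure the spread between libraries, which may be technical.

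SR proteins carry an RNA recognition motif and a tail rich in serine and arginine, and they usually promote the use of an exon by binding enhancer sequences within it and recruiting the spliceosome. The hnRNPs coat nascent RNA and often do the opposite, binding silencer sequences and keeping an exon out. Many genes of both families hold their own level through a poison exon or a retained intron that sends the transcript to nonsense-mediated decay. In muscle, shifts in the balance of these proteins accompany the exon choices of sarcomeric and calcium-handling genes during differentiation. The deposited table names transcript types as well as genes, and 19 of the 31 members list a transcript subject to nonsense-mediated decay (9 SR, 10 hnRNP), 22 list a retained intron and 5 list protein-coding transcripts alone. Its values are for whole genes, so productive and poison isoforms are added together.

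The promoter windows of the SR and of the hnRNP gene with the largest called rise and of those with the largest called fall are shown, because the members moved in both directions within each family. Each window holds 250 bases before and 50 after the annotated start, from RefSeq on GRCm38.p6, and is written 5′ to 3′ on the strand of the gene. Capitals mark GGGCGG (the GC box that Sp1 binds), CCAAT (the box that NF-Y binds) and TATAAA (the TATA box), and a motif on the other strand appears as its reverse complement. *Hnrnpdl* lies at chr5:100039173-100039472 on the minus strand, *Srsf3* at chr17:29032410-29032709 on the plus strand, *Srsf9* at chr5:115326927-115327226 on the plus strand and *Hnrnpa0* at chr13:58128507-58128806 on the minus strand.
Hnrnpdl: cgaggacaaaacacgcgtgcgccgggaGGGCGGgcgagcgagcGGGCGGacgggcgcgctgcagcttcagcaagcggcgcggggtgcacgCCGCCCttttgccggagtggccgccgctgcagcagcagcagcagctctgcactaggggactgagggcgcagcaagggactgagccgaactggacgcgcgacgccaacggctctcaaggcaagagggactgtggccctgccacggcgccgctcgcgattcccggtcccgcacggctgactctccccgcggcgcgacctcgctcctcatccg
Srsf3: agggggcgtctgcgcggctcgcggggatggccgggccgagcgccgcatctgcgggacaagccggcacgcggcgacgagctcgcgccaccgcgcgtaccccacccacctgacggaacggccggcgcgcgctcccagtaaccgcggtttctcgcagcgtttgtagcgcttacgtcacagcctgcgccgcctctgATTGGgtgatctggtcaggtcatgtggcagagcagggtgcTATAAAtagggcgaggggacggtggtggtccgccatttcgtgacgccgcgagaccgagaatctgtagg
Hnrnpa0: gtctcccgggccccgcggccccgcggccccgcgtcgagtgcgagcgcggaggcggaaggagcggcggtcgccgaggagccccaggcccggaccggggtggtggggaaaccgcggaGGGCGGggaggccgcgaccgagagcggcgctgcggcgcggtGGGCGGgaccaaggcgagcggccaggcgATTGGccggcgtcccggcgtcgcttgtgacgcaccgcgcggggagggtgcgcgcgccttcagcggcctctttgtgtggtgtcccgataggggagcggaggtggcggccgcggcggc
Srsf9: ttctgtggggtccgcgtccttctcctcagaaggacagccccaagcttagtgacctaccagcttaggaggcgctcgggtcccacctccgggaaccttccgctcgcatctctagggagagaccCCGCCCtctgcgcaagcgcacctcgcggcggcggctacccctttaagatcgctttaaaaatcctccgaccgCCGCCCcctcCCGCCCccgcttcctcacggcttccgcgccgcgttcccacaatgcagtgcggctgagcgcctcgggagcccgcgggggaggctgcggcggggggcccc
Among these 4 windows, that of *Srsf3* is the single one with TATAAA, and the others carry 2 or 3 matches of GGGCGG. RefSeq windows were found for 29 of the 31 members, all but *Hnrnpll* and *Hnrnpul2*. GGGCGG occurred in a window of 12 of 15 genes that rose, 4 of 5 that fell and 7 of 8 tested genes that did not pass, against 38.2% of 27025 genes. CCAAT occurred in 9 of 15, 2 of 5 and 6 of 8, against 41.1%. TATAAA occurred in 3 of 15, 1 of 5 and 0 of 8, against 15.7%. CCGGAAG was found in 4 of 15, 1 of 5 and 1 of 8, against 9.93%, and CACGTG in 2 of 15, 1 of 5 and 2 of 8, against 8.09%. Both strands were searched, matches of different motifs were counted independently of any overlap, and a match is a run of letters and not a site of binding. The member windows were rich in G and C, with a median of 61.83% for genes that rose, 75.33% for genes that fell and 70.67% for genes that did not pass, against 52.67% over all 32851 windows. These backgrounds hold every gene with a window, expressed here or not, and were not taken over expressed genes alone. They therefore do not show whether the members differ from other expressed genes.

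Between 66771605 and 75995168 reads per si-Control library and between 56332844 and 72839369 per si-*Fndc1* library were counted on genes. Levels are given as FPKM, the count of a gene scaled by the authors to its length and to the size of the library. The targeted gene, *Fndc1* (ENSMUSG00000071984, chr17:7957401-8046134 on the minus strand), stood at 26.7, 24.7, 28.7, 29.6 and 29.2 FPKM in si-Control replicates 1 to 5 and at 20.4, 23.5, 20.8, 21.1 and 18.7 FPKM in si-*Fndc1*. The groups did not overlap, and the mean went from 27.8 ± 2.04 to 20.9 ± 1.70 FPKM (SD, n = 5 each), a ratio of 0.752. The edgeR log2 fold change was -0.40 ± 0.07 (SE) with an adjusted p of 0.000934. Both groups expressed the muscle markers, with summed levels of 4136 to 4613 FPKM in si-Control and 3877 to 4619 FPKM in si-*Fndc1*, so the label "myoblast" covers cells with strong expression of differentiation genes. Of 10 muscle markers, 3 rose (*Myod1*, *Ckm*, *Mymk*) and 1 fell (*Mymx*). Of 12 proliferation markers 3 rose (*Ccna2*, *Cdk1*, *Rrm2*), and their sum was 89.9 to 96.4 FPKM in si-Control and 90.4 to 102.1 FPKM in si-*Fndc1*. The shares called were 40% of the muscle and 25% of the proliferation markers, beside 34.4% of all 13548 genes tested. All 12 hepatocyte markers rose, from a sum of 0.0012 to 5.89 FPKM to a sum of 50.4 to 176.9 FPKM. They were chosen with the rise of liver transcripts in these data known, so their count is no test. Over all genes tested 17.3% rose. Their sum averaged 2.44 FPKM in si-Control and 135 FPKM in si-*Fndc1*, so they were high enough to be tested mainly through si-*Fndc1*. Of 9 neural, blood and fat markers 1 was high enough to be tested and did not pass, and *Snap25*, *Ptprc*, *Adipoq* and *Plin1* had no count in any library. The part of these markers in the results on SR and hnRNP genes was not tested.

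Most SR and hnRNP genes differed between the groups, by small amounts and more often upward. Of the 30 members that passed the filter of 0.5 FPKM on average, 15 rose and 5 fell at an edgeR adjusted p under 0.05, and 10 did not pass. The share called was 66.7%, against 34.4% of all 13548 genes tested (17.3% rose, 17.2% fell). The median log2 fold change was 0.16 over the 30 members and 0.00 over all genes tested. Among called members the median size of the log2 fold change was 0.26, close to the 0.29 of all called genes, and 0 members changed by a log2 of 1 or more. DESeq2 likewise called 15 rising and 5 falling members, against 37% of all genes (18.5% rose, 18.6% fell). In FPKM, the libraries of the groups did not overlap for 16 members, 12 of them higher and 4 lower in si-*Fndc1*, against 25.1% of all genes tested (12.1% higher, 13% lower). In bulk RNA a change in the make-up of the culture and a change in RNA per cell cannot be told apart.

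**Figure D1:**
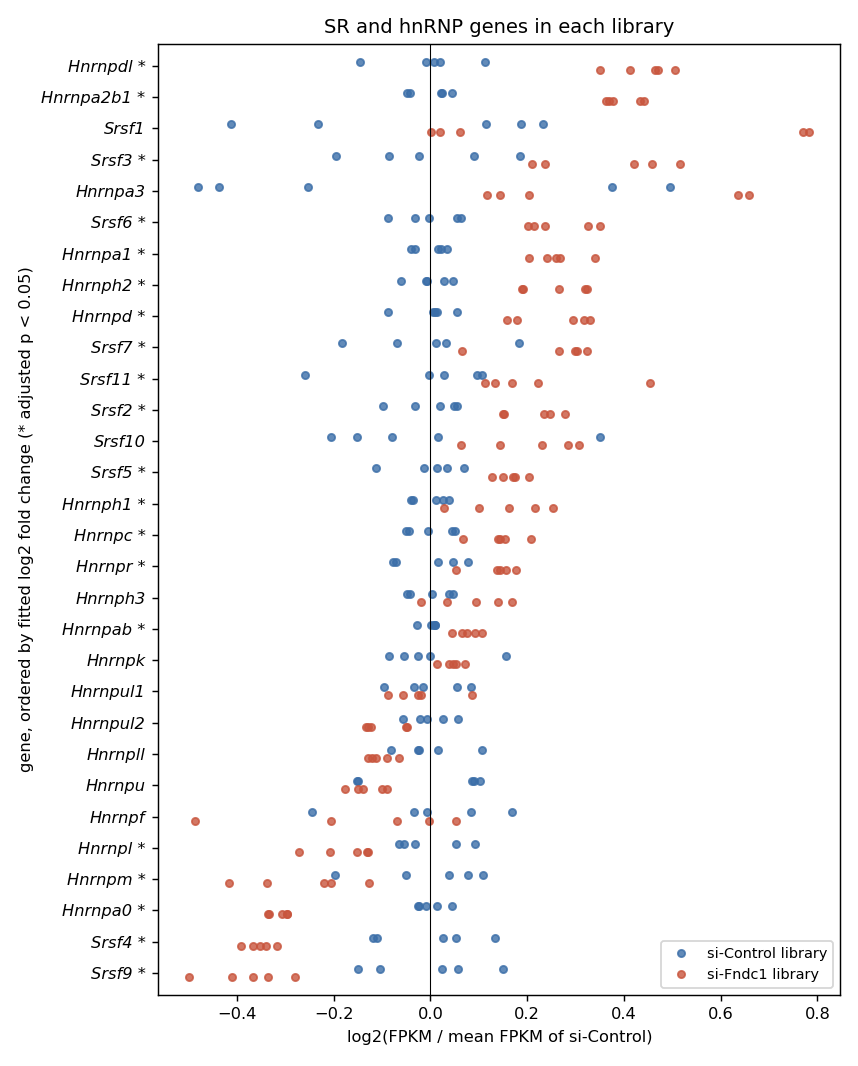
FPKM of each tested SR and hnRNP gene in each library, as log2 of its ratio to the mean of the 5 si-Control libraries (x axis), with genes on the y axis ordered by fitted log2 fold change and an asterisk for an edgeR adjusted p under 0.05. Each point is 1 library, and the 5 si-*Fndc1* points lie wholly to the right of the si-Control points for 12 genes, among them *Hnrnpdl* and *Hnrnpa2b1*, and wholly to the left for 4, *Srsf9*, *Srsf4*, *Hnrnpa0* and *Hnrnpl*.

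The signed log2 fold change was lower where the GC content of the transcripts was higher, in members as in other genes. Over the 30 members the Spearman correlation between the log2 fold change and the GC percentage of the longest coding transcript was -0.73, and over 11185 tested genes with a known GC content it was -0.52, where genes are no independent replicates. The 15 members that rose had a median GC content of 44.6% (39.2% to 49.97%), the 5 that fell one of 54.2% (49.3% to 56.2%) and the 10 others one of 44.7% (39.9% to 54.3%), against 50.5% over tested genes. When the trend of counts with GC content and length was removed within each library, 11 members were called, 7 rising and 4 falling, against 22.8% of 11185 genes (11.5% rose, 11.3% fell). Without that correction the same 11185 genes gave 38% called (19% rose, 19% fell) and the members 15 rising and 5 falling. The members' median log2 fold change was 0.04 after correction and their correlation with GC content -0.41. Over all genes it was -0.01, which the fit of the correction to these same genes brings about. With the replicate number as a further term the corrected fit called 8 rising and 4 falling members, against 14.8% of genes (7.54% rose, 7.22% fell). The 10 members called both ways were *Hnrnpdl*, *Hnrnpa2b1*, *Hnrnpa1*, *Hnrnpd*, *Hnrnpr* and *Srsf2*, which rose, and *Srsf9*, *Srsf4*, *Hnrnpa0* and *Hnrnpm*, which fell. The correction also took the log2 fold change of *Fndc1* from -0.40 to -0.23 (edgeR adjusted p = 0.00845). Among muscle markers it gave 3 rising (*Myod1*, *Ckm*, *Des*) and 2 falling (*Mymx*, *Myog*), with *Mymk* at 0.21 (adjusted p = 0.103), and among proliferation markers 2 rising (*Ccna2*, *Cdk1*) and 1 falling (*Pcna*), with *Rrm2* at -0.02 (adjusted p = 0.835). Corrected values of the called members and of the related genes stand beside their uncorrected ones. Whether the GC trend arose in the cells or in the libraries was not tested.

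**Figure D2:**
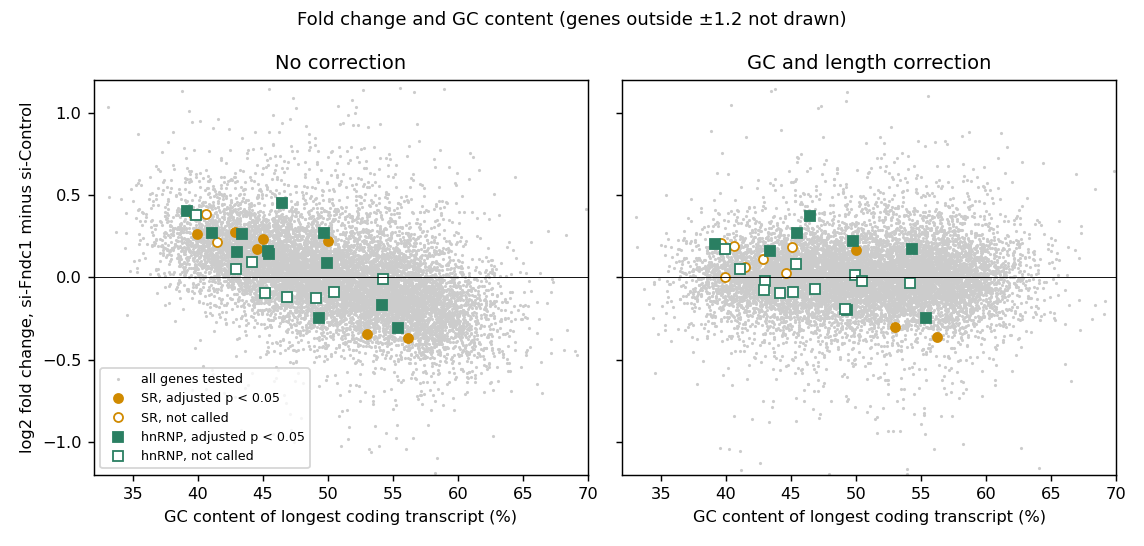
Fitted log2 fold change (y axis) against GC content of the longest coding transcript in percent (x axis), without correction on the left and with GC and length correction on the right. Grey points are the 11185 tested genes, of which those beyond ±1.2 are left out, circles SR genes and squares hnRNP genes, filled where the adjusted p is under 0.05. The downward slope on the left (Spearman -0.52 over all genes) is absent on the right (-0.01), as the correction was fitted over these genes to remove it.

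Most of the tested SR genes rose. Of the 10 tested SR genes 6 rose (*Srsf2*, *Srsf3*, *Srsf5*, *Srsf6*, *Srsf7*, *Srsf11*), 2 fell (*Srsf4*, *Srsf9*) and 2 did not pass (*Srsf1*, *Srsf10*), with a median log2 fold change of 0.23. Over all genes tested the shares were 17.3% rising and 17.2% falling. Their summed level was 203.5 ± 6.36 FPKM in si-Control (193.9 to 209.8) and 223.4 ± 5.19 FPKM in si-*Fndc1* (218.4 to 229.4), and the groups did not overlap. With the GC correction 1 SR gene rose (*Srsf2*) and 2 fell (*Srsf4*, *Srsf9*), where 11.5% of genes rose and 11.3% fell. The eleventh SR gene, *Srsf12*, a paralog of *Srsf10*, had 0 counts in all 10 libraries, which allows up to 0.0395 to 0.0533 CPM, where a CPM is a count scaled to the library total (3 counts per library, counting error only).

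*Srsf3* (ENSMUSG00000071172, chr17:29251602-29262347, plus strand) encodes the smallest SR protein, which also links splicing to mRNA export. Its level was 10.8, 14.0, 13.1, 11.6 and 12.1 FPKM in si-Control and 14.3, 17.6, 16.9, 16.5 and 14.5 FPKM in si-*Fndc1*. The groups came close without overlap, the highest control lying just under the lowest knockdown library. The mean went from 12.3 ± 1.28 to 16.0 ± 1.5 FPKM, a log2 fold change of 0.38 ± 0.08 (edgeR adjusted p = 0.00482). After GC correction it was 0.21 with an adjusted p of 0.119, and *Srsf3* has one of the lowest GC contents among the members, 39.6%.

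*Srsf6* (ENSMUSG00000016921, chr2:162773448-162779041, plus strand), like *Srsf4* and *Srsf5* an SR protein with a second, atypical recognition motif, stood at 29.3, 27.6, 28.7, 30.5 and 30.6 FPKM in si-Control and at 37.4, 36.8, 33.7, 34.0 and 34.6 FPKM in si-*Fndc1*. Every knockdown library lay above every control library. The log2 fold change was 0.28 ± 0.04 (edgeR adjusted p = 0.000497), and 0.11 with an adjusted p of 0.105 after GC correction. *Srsf5* (ENSMUSG00000021134, chr12:80992278-80997281, plus strand), the most abundant SR mRNA by FPKM, had 49.2, 48.3, 45.1, 51.2 and 49.9 FPKM in si-Control and 53.3, 54.9, 54.1, 55.0 and 56.2 FPKM in si-*Fndc1*. Here too the groups were apart, by about the distance between neighbouring libraries. This was a log2 fold change of 0.17 ± 0.04 (edgeR adjusted p = 0.00341), and 0.03 with an adjusted p of 0.597 after GC correction.

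*Srsf2* (ENSMUSG00000034120, chr11:116740727-116743920, minus strand), also known as SC35, kept its call under the correction. It had 36.0, 40.0, 39.1, 39.8 and 37.7 FPKM in si-Control and 46.7, 45.3, 42.7, 45.7 and 42.8 FPKM in si-*Fndc1*. No control library reached the lowest knockdown library. The mean rose from 38.5 ± 1.69 to 44.6 ± 1.79 FPKM, with a log2 fold change of 0.22 ± 0.04 (edgeR adjusted p = 0.00145) and of 0.17 (adjusted p = 0.0137) after GC correction. *Mfsd11* and *Mettl23* overlap *Srsf2* on the opposite strand, and no source states whether the counting used strand.

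The other rises among SR genes were less firm. *Srsf7*, a relative of *Srsf3* with a zinc knuckle, went from 10.0 ± 0.940 to 11.9 ± 0.838 FPKM with overlapping groups, a log2 fold change of 0.26 (edgeR adjusted p = 0.0165) that was 0.00 (adjusted p = 0.997) after GC correction. *Srsf11*, which contacts the U2AF complex at the 3′ splice site, went from 10.9 ± 1.07 to 12.8 ± 1.29 FPKM, a log2 fold change of 0.23 (edgeR adjusted p = 0.0453), which was 0.18 (adjusted p = 0.0928) after GC correction. Leaving out any one of si-Control replicates 1, 2 or 3 or si-*Fndc1* replicates 1, 2, 3 or 4 took the adjusted p of *Srsf11* over the threshold, to between 0.0524 and 0.0925.

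*Srsf9* and *Srsf4* went the other way. *Srsf9* (ENSMUSG00000029538, chr5:115465236-115471139, plus strand), the closest relative of *Srsf1* in the family, had 26.0, 31.1, 29.1, 25.2 and 28.5 FPKM in si-Control and 21.1, 19.8, 22.2, 23.1 and 21.7 FPKM in si-*Fndc1*. All knockdown libraries lay below all control libraries. The mean fell from 28.0 ± 2.37 to 21.6 ± 1.22 FPKM, with a log2 fold change of -0.37 ± 0.06 (edgeR adjusted p = 0.00137) and of -0.37 (adjusted p = 0.000434) after GC correction, at the highest GC content of the members, 56.2%. *Srsf4* (ENSMUSG00000028911, chr4:131600928-131629017, plus strand) had 11.0, 11.0, 12.1, 12.3 and 13.0 FPKM in si-Control and 9.55, 9.40, 9.06, 9.22 and 9.32 FPKM in si-*Fndc1*. The knockdown libraries were tightly grouped below the spread of the controls. The fit gave a log2 fold change of -0.35 ± 0.05 (edgeR adjusted p = 0.000542), and -0.30 (adjusted p = 0.00213) after GC correction. The rows *A930004J17Rik* (same strand, 1.35 FPKM in si-Control and 1.2 FPKM in si-*Fndc1*) and *Gm12992* (opposite strand, 0.964 and 1.59 FPKM) overlap *Srsf4*.

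*Srsf1* (ENSMUSG00000018379, chr11:87938199-87944581, plus strand), the founding member of the family, did not pass although its fitted log2 fold change of 0.38 equalled that of *Srsf3*. It had 6.54, 9.91, 7.41, 10.2 and 9.42 FPKM in si-Control and 14.8, 14.97, 9.07, 8.82 and 8.71 FPKM in si-*Fndc1*. Knockdown replicates 1 and 2 stood well above every other library, and knockdown replicates 3 to 5 lay within the control range. The SE was 0.19 and the edgeR adjusted p 0.153, and leaving out a library moved the log2 fold change between 0.26 and 0.47. *Srsf10*, which represses splicing in its dephosphorylated form, had a log2 fold change of 0.22 (edgeR adjusted p = 0.119), with levels of 4.43 to 6.51 FPKM in si-Control and 5.33 to 6.31 FPKM in si-*Fndc1*. Its highest control was replicate 5, and without that library the log2 fold change was 0.32 with an adjusted p of 0.00536.

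Within the SR group *Srsf4* fell while, without GC correction, its relatives *Srsf5* and *Srsf6* rose. Their ratios put these changes together within a library. The ratio of *Srsf5* to *Srsf4* within a library was 3.72 to 4.47 in si-Control and between 5.57 and 6.03 in si-*Fndc1*. The ratio of *Srsf6* to *Srsf4* was 2.35 to 2.65 in si-Control and between 3.69 and 3.92 in si-*Fndc1*. Neither range overlapped, which follows from the single genes. *Srsf5* and *Srsf6* were above every control in every knockdown library and *Srsf4* was below every control. The ratios are therefore no separate result. After GC correction the log2 fold changes of the paired genes still differed by 0.33 and 0.41. The share of *Srsf9* in the summed SR level went from 13.8% ± 1.08 to 9.66% ± 0.705 and that of *Srsf4* from 5.84% ± 0.362 to 4.17% ± 0.0548, while *Srsf5* took 24.0% ± 1.14 and 24.5% ± 0.929. By contrast the ratios of *Srsf1* to *Srsf9* (0.312 ± 0.0632 and 0.531 ± 0.183) and of *Srsf3* to *Srsf7* (1.23 ± 0.0787 and 1.35 ± 0.210) overlapped between the groups.

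**Figure D3:**
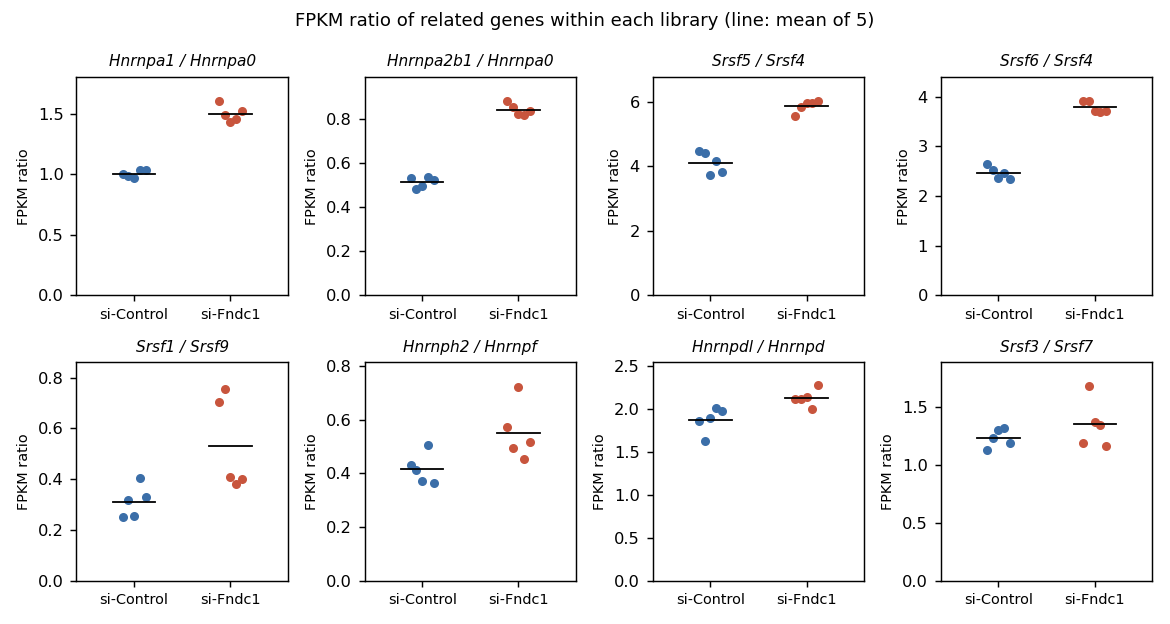
Ratio of the FPKM of related genes within each library (y axis, from 0), for si-Control and si-*Fndc1* (x axis), with 1 point per library and a line at the mean of 5. The groups do not overlap in the ratios of *Hnrnpa1* and *Hnrnpa2b1* to *Hnrnpa0* and of *Srsf5* and *Srsf6* to *Srsf4*, and they overlap in the other 4. Each ratio without overlap sets a gene higher in all knockdown libraries over a gene lower in all of them, so its separation follows from the single genes. How often the ratios of other gene pairs do not overlap was not counted.

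Among the hnRNP genes the direction varied between and within families. Of the 20, all tested, 9 rose, 3 fell and 8 did not pass, with a median log2 fold change of 0.09. Over all genes tested 17.3% rose and 17.2% fell. The summed level was 652.2 ± 8.001 FPKM in si-Control (644.2 to 665.3) and 677.7 ± 13.5 FPKM in si-*Fndc1* (654.5 to 687.7), and the groups overlapped. With the GC correction 6 rose and 2 fell, where 11.5% of genes rose and 11.3% fell. All 3 genes of the D and AB family were called as rising, *Hnrnpab* at a log2 fold change of 0.08 only. After GC correction *Hnrnpab* was at 0.02 (edgeR adjusted p = 0.681). The A/B family was split (2 rose, 1 fell, 1 did not pass), 2 of 4 in the F/H family rose, and the 3 genes of the U family did not pass.

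In the A/B family, whose proteins bind exonic silencers and repress inclusion, *Hnrnpa2b1* (ENSMUSG00000004980, chr6:51437912-51446874, minus strand) had the smallest p of any member. Its level was 42.8, 40.7, 40.8, 43.4 and 42.7 FPKM in si-Control and 57.2, 56.8, 54.4, 54.7 and 54.1 FPKM in si-*Fndc1*. The gap between the groups was several times the spread within either. The mean went from 42.1 ± 1.23 to 55.4 ± 1.44 FPKM, a log2 fold change of 0.41 ± 0.03 (edgeR adjusted p = 1.55e-05), and of 0.20 (adjusted p = 0.00164) after GC correction. *Hnrnpa1* (ENSMUSG00000046434, chr15:103148859-103155119, plus strand) had 80.5, 83.2, 80.1, 83.7 and 84.3 FPKM in si-Control and 104.4, 99.2, 94.8, 97.3 and 98.6 FPKM in si-*Fndc1*. All knockdown libraries lay above all controls. The fit gave a log2 fold change of 0.27 ± 0.03 (edgeR adjusted p = 0.000101), and 0.22 (adjusted p = 0.000845) after GC correction.

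*Hnrnpa0* (ENSMUSG00000007836, chr13:58273693-58276370, minus strand), an A/B protein that also binds AU-rich elements of cytokine mRNAs, fell. It had 80.4, 84.5, 82.6, 80.6 and 81.4 FPKM in si-Control and 65.0, 66.7, 66.2, 66.7 and 64.9 FPKM in si-*Fndc1*. The knockdown libraries formed a narrow band far below the controls. The mean went from 81.9 ± 1.67 to 65.9 ± 0.902 FPKM, a log2 fold change of -0.31 ± 0.03 (edgeR adjusted p = 2.92e-05), and of -0.25 (adjusted p = 5.8e-05) after GC correction. *Hnrnpa1* and *Hnrnpa0* thus had like FPKM in si-Control, at a ratio of 0.970 to 1.04, and were at a ratio of 1.43 to 1.61 in si-*Fndc1*. Per length of the longest coding transcript their si-Control means were 257.2 and 91.0, so the like FPKM rests on the lengths used. The ratio of *Hnrnpa2b1* to *Hnrnpa0* went from 0.482 to 0.538 in si-Control to 0.819 to 0.880 in si-*Fndc1*. Neither pair of ranges overlapped, which had to follow, as all knockdown libraries were above the controls for *Hnrnpa1* and *Hnrnpa2b1* and below them for *Hnrnpa0*. These ratios thus restate the single genes. After GC correction the log2 fold changes of the paired genes differed by 0.47 and 0.45.

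*Hnrnpa3*, the remaining A/B gene and the least abundant tested member, was too variable to be read. It had 1.93, 3.68, 1.87, 3.38 and 2.19 FPKM in si-Control and 4.05, 3.01, 4.12, 2.88 and 2.83 FPKM in si-*Fndc1*. Control replicates 2 and 4 lay among the knockdown libraries, and the others lay below them. Its log2 fold change was 0.38 with an edgeR adjusted p of 0.191.

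*Hnrnpdl*, a relative of the AU-rich element binding protein AUF1, had the largest log2 fold change of any called member. It had 18.1, 16.3, 18.3, 19.5 and 17.9 FPKM in si-Control and 25.6, 24.9, 23.0, 24.0 and 24.8 FPKM in si-*Fndc1*. The lowest knockdown library stood clear of the highest control. The mean went from 18.0 ± 1.14 to 24.5 ± 1.02 FPKM, a ratio of 1.36, with a log2 fold change of 0.45 ± 0.05 (edgeR adjusted p = 5.75e-05) and of 0.37 (adjusted p = 0.000251) after GC correction. *Hnrnpd*, which encodes AUF1 and lies near *Hnrnpdl* on chromosome 5, had 9.72, 10.0, 9.66, 9.70 and 9.05 FPKM in si-Control and 12.1, 11.8, 10.7, 12 and 10.9 FPKM in si-*Fndc1*. These groups did not overlap either. The log2 fold change was 0.27 ± 0.04 (edgeR adjusted p = 0.000953), and 0.16 (adjusted p = 0.0248) after GC correction. The table places *Hnrnpdl* at chr5:100181436-100187523 and *Hnrnpd* at chr5:100103794-100126797, both on the minus strand (GRCm39).

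*Hnrnpab* (ENSMUSG00000020358, chr11:51490927-51497674, minus strand), whose protein binds single-stranded DNA and RNA, was the most abundant member by FPKM. It had 127.5, 126.8, 127.5, 124.3 and 127.6 FPKM in si-Control and 132.6, 136.5, 130.7, 133.5 and 135.1 FPKM in si-*Fndc1*. The groups did not overlap, yet the difference was the smallest among called members. Its log2 fold change was 0.08 ± 0.02 (edgeR adjusted p = 0.0205), with an adjusted p of 0.0522 without si-Control replicate 4 and a log2 fold change of 0.02 (adjusted p = 0.681) after GC correction. The ratio of *Hnrnpdl* to *Hnrnpab* was 0.128 to 0.157 in si-Control and between 0.176 and 0.193 in si-*Fndc1*, so the 3 genes of the family did not rise in proportion.

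In the F/H family, whose proteins bind runs of G, *Hnrnph2* (ENSMUSG00000045427, chrX:133501928-133507809, plus strand) had 26.9, 26.2, 25.3, 27.2 and 26.2 FPKM in si-Control and 31.7, 30.1, 32.9, 30.1 and 33.0 FPKM in si-*Fndc1*. The controls all lay below the knockdown libraries. The log2 fold change was 0.27 ± 0.04 (edgeR adjusted p = 0.000292), and 0.05 (adjusted p = 0.300) after GC correction. *Hnrnph1*, its close relative, went from 16.9 ± 0.422 to 18.8 ± 1.17 FPKM, with a log2 fold change of 0.16 (edgeR adjusted p = 0.0119) and of 0.08 (adjusted p = 0.171) after GC correction. *Hnrnph3* (log2 fold change 0.09, adjusted p = 0.164) and *Hnrnpf* (-0.12, adjusted p = 0.383) did not pass. *Hnrnpf* stood next in level after *Hnrnpab*, *Hnrnpa1* and *Hnrnpa0* in si-Control, and its libraries spread from 54.0 to 71.95 FPKM in si-Control and from 45.7 to 66.4 FPKM in si-*Fndc1*.

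*Hnrnpm* and *Hnrnpl* were the other hnRNP genes that fell. *Hnrnpm* (ENSMUSG00000059208, chr17:33865207-33905834, minus strand), which binds GU-rich sequence, had 17.7, 14.3, 17.3, 15.8 and 16.8 FPKM in si-Control and 15.01, 14.1, 14.2, 13.0 and 12.3 FPKM in si-*Fndc1*. Control replicate 2 lay among the knockdown libraries, so the groups overlapped. The log2 fold change was -0.25 ± 0.07 (edgeR adjusted p = 0.0163), and -0.20 (adjusted p = 0.0403) after GC correction. *Marchf2* overlaps *Hnrnpm* on the same strand, at 5.95 FPKM in si-Control and 6.72 FPKM in si-*Fndc1*, so reads of their shared bases may have been assigned to either or to none.

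*Hnrnpl* (ENSMUSG00000015165, chr7:28507966-28521691, plus strand), which binds CA repeats, had 28.2, 28.7, 30.4, 31.2 and 28.0 FPKM in si-Control and 26.8, 26.8, 24.3, 26.4 and 25.4 FPKM in si-*Fndc1*. The groups did not overlap. *Hnrnpl* thus had a log2 fold change of -0.17 ± 0.04 (edgeR adjusted p = 0.00768), and -0.04 (adjusted p = 0.513) after GC correction. Its paralog *Hnrnpll*, known for the splicing of *Ptprc* in T cells, did not pass (-0.10, edgeR adjusted p = 0.0833) and had an adjusted p of 0.0444 without si-Control replicate 4.

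Among the hnRNP genes with a single representative, *Hnrnpc*, which packages long uridine tracts of nascent RNA, went from 21.4 ± 0.716 to 23.7 ± 0.826 FPKM without overlap. Its log2 fold change was 0.15 (edgeR adjusted p = 0.00573), and -0.02 (adjusted p = 0.671) after GC correction. *Hnrnpr*, a relative of *Syncrip*, went from 2.93 ± 0.142 to 3.22 ± 0.104 FPKM with overlapping groups, and its log2 fold change of 0.14 (edgeR adjusted p = 0.0184) was 0.27 (adjusted p = 0.00901) after correction, the one of the 20 calls whose size grew. Its read-back length, on which the correction also rests, was the longest of the tested members. *Hnrnpk*, the C-rich binding KH-domain protein, had a log2 fold change of 0.05 (edgeR adjusted p = 0.363), which was 0.09 with an adjusted p of 0.0369 without si-Control replicate 4, the highest control.

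The U family, named for the nuclear scaffold protein SAF-A that *Hnrnpu* encodes, lay at or slightly below the control level. *Hnrnpu* had 27.3 to 32.6 FPKM in si-Control and 26.8 to 28.5 FPKM in si-*Fndc1*, with control replicates 2 and 3 inside the knockdown range and the other 3 controls above it. Its log2 fold change was -0.12 (edgeR adjusted p = 0.122), and the adjusted p was 0.0392 without si-Control replicate 2 and 0.0448 without replicate 3. *Hnrnpul2* had a log2 fold change of -0.09 (edgeR adjusted p = 0.0512), just outside the threshold, with 0.0291 without si-Control replicate 2 and 0.0352 without si-*Fndc1* replicate 2. *Hnrnpul1* had one of -0.01 (adjusted p = 0.867), and it was the single member called after GC correction alone, at 0.17 (adjusted p = 0.0112).

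Levels differed far more between members than between groups. In si-Control the 5 highest by FPKM were *Hnrnpab* at 127 ± 1.39, *Hnrnpa1* at 82.4 ± 1.91, *Hnrnpa0* at 81.9 ± 1.67, *Hnrnpf* at 64.0 ± 6.70 and *Srsf5* at 48.8 ± 2.29 FPKM. *Hnrnpa1* and *Hnrnpa0* overlapped, as did no other neighbours among these 5. The lowest were *Hnrnpr* at 2.93 ± 0.142 and *Hnrnpa3* at 2.61 ± 0.856 FPKM, which also overlapped. The length by which the authors divided, read back from count and FPKM, ran from 1839 nt for *Srsf9* to 24702 nt for *Hnrnpr*, far over the 2686 nt of the longest coding transcript of *Hnrnpr*, so the FPKM of genes with long non-coding or intron-retaining transcripts is low. Per length of the longest coding transcript, *Hnrnpa1* came first at 257.2, ahead of *Hnrnpab* at 165.3 and *Srsf5* at 137.8 on the same scale, *Hnrnpu* moved from rank 9 to 4 and *Hnrnpr* from rank 29 to 21. The uncorrected fold change of a gene does not depend on this length, whereas the GC and length correction used it.

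**Figure D4:**
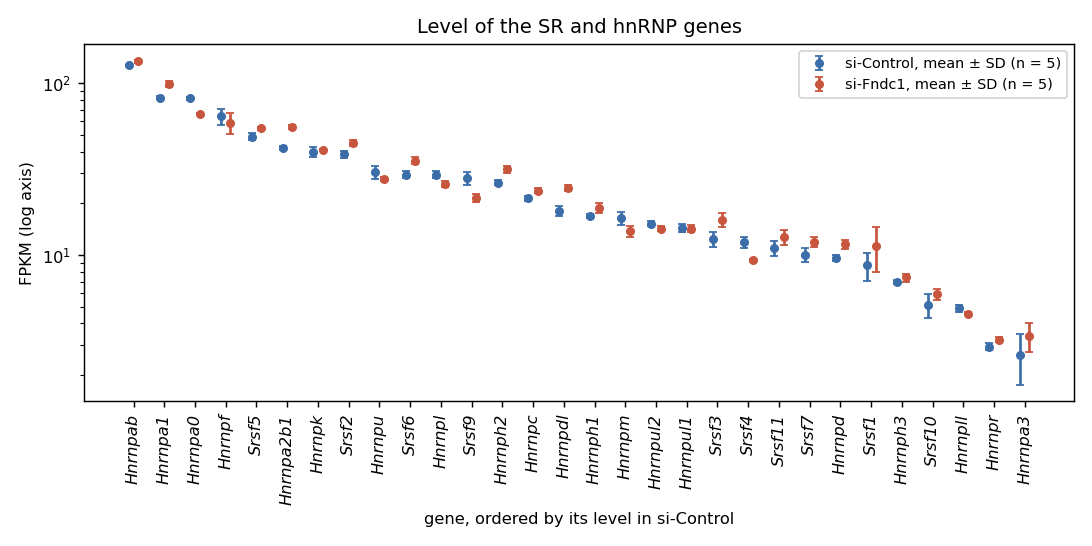
Level of each tested SR and hnRNP gene in FPKM (y axis, log scale) in si-Control and si-*Fndc1*, as mean and SD of 5 libraries, with genes on the x axis in order of their level in si-Control. Levels run from 127 FPKM for *Hnrnpab* to 2.61 FPKM for *Hnrnpa3*, and the shift between groups is small beside this range.

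Genes that work with the SR and hnRNP proteins were also examined, in lists of 12 to 50 genes of which 33.3% to 50% were called, beside 34.4% of all genes tested. The corrected counts of each list stand beside a share of 22.8% of 11185 genes called after GC correction (11.5% rose, 11.3% fell). Of 17 other hnRNP-type proteins 4 rose and 2 fell (35.3% called, median log2 fold change 0.05), or 5 and 2 after GC correction. The splicing and mRNA decay factor *Khsrp* fell from 31.5 ± 1.71 to 22.4 ± 0.819 FPKM (edgeR log2 fold change -0.48, adjusted p = 2.53e-05), and the corrected value was -0.30 (adjusted p = 0.000226). Without correction the poly(C)-binding proteins were split, with *Pcbp2* at 31.3 ± 0.849 and 35.2 ± 0.797 FPKM (0.18, adjusted p = 0.00086) and *Pcbp4* at 27.2 ± 2.59 and 19.5 ± 1.67 FPKM (-0.47, adjusted p = 0.000861). After GC correction *Pcbp2* was at 0.11 (edgeR adjusted p = 0.0215) and *Pcbp4* lost its call (-0.20, adjusted p = 0.110). Of 22 SR-related proteins, which carry serine and arginine repeats without the canonical layout, 5 rose and 4 fell (40.9%, median 0.07), or 3 and 2 after correction. *Tra2b*, an exon enhancer binding protein, rose from 6.56 ± 0.336 to 7.92 ± 0.335 FPKM (0.28, edgeR adjusted p = 0.000669) and *Rsrc2* from 5.79 ± 0.466 to 6.90 ± 0.456 FPKM (0.26, adjusted p = 0.00804). With the correction *Tra2b* kept its call (0.17, edgeR adjusted p = 0.0243) and *Rsrc2* lost it (0.07, adjusted p = 0.428). *Scaf1* and *Scaf4*, whose proteins bind the tail of RNA polymerase II, fell from 22.7 ± 0.528 to 15.4 ± 0.441 FPKM (-0.55, edgeR adjusted p = 5.57e-06) and from 6.37 ± 0.551 to 4.81 ± 0.140 FPKM (-0.40, adjusted p = 0.000597), and their corrected values were -0.21 (adjusted p = 0.000808) and -0.28 (adjusted p = 0.00476).

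SR proteins enter the nucleus and change activity through phosphorylation of their tails by SRPK and CLK kinases. A list of 12 genes held these kinases, the further kinases *Prpf4b* and *Dyrk1a*, a phosphatase subunit, the import receptor and *Topors*. Of these 12, 4 rose and 0 fell (33.3%, median 0.08), or 3 and 0 after correction. *Clk1* rose from 7.0 ± 0.128 to 8.4 ± 0.497 FPKM (edgeR log2 fold change 0.27, adjusted p = 0.000471) and *Clk4* from 4.72 ± 0.309 to 6.25 ± 0.268 FPKM (0.41, adjusted p = 0.000211). After GC correction *Clk4* kept its call (0.27, adjusted p = 0.00398) and *Clk1* did not (0.08, adjusted p = 0.140).

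Of 50 core spliceosome genes 13 rose and 9 fell (44%, median 0.03), or 11 and 7 after correction. The shares called over all genes were 34.4% without and 22.8% with the correction. The Sm ring subunits *Snrpd1* and *Snrpd3* rose from 9.58 ± 0.415 to 14.4 ± 0.909 FPKM (edgeR log2 fold change 0.59, adjusted p = 3.88e-05) and from 13.7 ± 0.815 to 19.5 ± 0.632 FPKM (0.51, adjusted p = 2.93e-05). The RNA helicases *Dhx16* and *Dhx38* fell from 11.6 ± 0.708 to 9.08 ± 0.320 FPKM (-0.34, edgeR adjusted p = 0.000354) and from 12.9 ± 0.270 to 10.6 ± 0.571 FPKM (-0.27, adjusted p = 0.000571). Both Sm genes kept their calls after GC correction (0.29, adjusted p = 0.00488, and 0.44, adjusted p = 9.79e-05), as did *Dhx16* (-0.15, adjusted p = 0.0220), whereas *Dhx38* did not (-0.09, adjusted p = 0.0741).

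Nonsense-mediated decay removes the poison isoforms of SR and hnRNP genes, and of its 14 genes 3 rose and 4 fell (50%, median -0.07). The exon junction subunit *Magoh* rose from 37.8 ± 2.70 to 53.1 ± 3.25 FPKM (edgeR log2 fold change 0.50, adjusted p = 0.000151), which was 0.05 (adjusted p = 0.403) after GC correction. *Upf3b*, which links that complex to the decay machinery, rose from 3.63 ± 0.280 to 4.88 ± 0.201 FPKM (0.43, edgeR adjusted p = 0.00037), and was at 0.24 (adjusted p = 0.0120) after correction. The endonuclease *Smg6* fell from 9.30 ± 0.545 to 7.12 ± 0.475 FPKM (-0.38, edgeR adjusted p = 0.000473) and the decay factor *Smg5* from 18.4 ± 0.780 to 14.9 ± 0.610 FPKM (-0.30, adjusted p = 0.000265). After GC correction *Smg6* kept its call (-0.26, edgeR adjusted p = 0.00306) and *Smg5* lost it (-0.09, adjusted p = 0.0973). With the correction 2 of the 14 rose and 3 fell, and gene-level counts give no measure of the pathway's activity on the poison isoforms of the members.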

How the data were processed

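mRNA was sequenced from 5 si-Control and 5 si-*Fndc1* C2C12 libraries, grouped and numbered by their titles. The authors deposited, per gene and library, a read count without normalization and an FPKM value, in 1 table. Methods and labels conflict: the methods name TopHat, mm10, htseq-count and 4 libraries, the series description STAR and mm9, and the submitters' processing notes cutadapt 1.9, FastQC and GRCm39. The gene positions listed in the table are given as GRCm39. How FPKM was computed and whether strand was used is not given in the sources used here. Columns of values per library without a sample: 0.

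Counts were tested with edgeR 4.0.16 (quasi-likelihood, TMM) in R 4.3.3 for the 13548 genes with a mean of at least 0.5 FPKM, with Benjamini-Hochberg adjustment over all of them and a threshold of 0.05. A log2 fold change is si-*Fndc1* minus si-Control. Alternatives were DESeq2 1.42.0 (named by the study), limma 3.58.1 on log2(FPKM + 1) with and without quantile normalization, RLE scaling, no filter, a filter of 5 FPKM, a replicate block, each library left out, and an offset for GC content and length. The offset was a spline of 5 degrees of freedom, fitted per library by robust regression (MASS 7.3.60.0.1) over the 11185 tested genes (82.6%) whose length could be read back from the table and whose GC content is known from NCBIM37 transcripts. Scripts were tested on simulated data. Tables were handled with Python 3.11.15, numpy 2.4.6, pandas 2.3.3 and scipy 1.17.1. Counts of libraries of 1 group differed by more than sampling noise in every one of the 20 pairs (chi-square divided by its degrees of freedom, 41.5 or more). No library was therefore treated as a repeat sequencing of another. This comparison cannot tell separate cultures from separate preparations of the same RNA.

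The members and the gene lists were chosen with earlier results of these data known. Values in every library are given for *Fndc1*, the 7 rising and the 5 falling called members with the largest log2 fold change, the 3 SR and 3 hnRNP genes with the highest mean FPKM, and, chosen after their values were seen, *Srsf1* and *Hnrnpa3*. From each related list, the 2 rising and 2 falling called genes with the smallest p are named. A gene that this rule names is not reported here.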

Additional observations from a re-analysis of the deposited data

Results flagged for a closer look

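In 2 of 60 groups of 5 libraries 1 library stood apart from the others by more than 0.71 of the range, where chance alone gives about 1 group in 20. *Hnrnpab* was at 124 FPKM in si-Control replicate 4 and at 127 to 128 FPKM in the other 4 controls, and without that library its edgeR adjusted p was 0.0522. *Srsf7* was at 10.5 FPKM in si-*Fndc1* replicate 2 and at 12.04 to 12.54 FPKM in the other 4 knockdown libraries.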

How the results depend on the processing

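Of the 20 called members, 9 were called in the same direction under every one of the 20 alternatives, 5 rising (*Hnrnpa1*, *Hnrnpa2b1*, *Hnrnpd*, *Hnrnpdl*, *Srsf2*) and 4 falling (*Hnrnpa0*, *Hnrnpm*, *Srsf4*, *Srsf9*). How many of all called genes were called under every alternative was not counted, so this number has no background. Against 15 rising and 5 falling, the GC and length correction gave 7 rising, and 8 with the replicate block as well. The median log2 fold change of 0.16 became 0.12 with quantile normalization, 0.0403 with the GC correction and 0.0407 with correction and block. The GC correction took the SR-related genes called from 9 to 5, and correction with block took them to 3, the kinase and import genes from 4 to 2, the core spliceosome genes from 22 to 14 and the decay genes from 7 to 4. Over all genes in these fits, 22.8% were called with the correction and 14.8% with correction and block. The cause of these shifts was not tested.

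Leaving out 1 library in turn gave 14 to 16 rising and 5 to 7 falling members, a median of 0.14 to 0.17, and 5 to 7 calls among other hnRNP-type, 7 to 10 among SR-related, 4 to 5 among kinase and import, 17 to 21 among core spliceosome and 6 to 8 among decay genes. Without si-Control replicate 2, 5 hnRNP genes fell in place of 3. Shares over all genes are not given for the fits with 1 library left out.

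Some small values changed sign: with quantile normalization *Hnrnpab* to -0.0446 and *Hnrnpk* to -0.00020, with the GC correction, alone and with the block, *Hnrnpc* to -0.0220 and -0.0221, *Hnrnph3* to -0.10 and -0.10, *Hnrnpk* to -0.0788 and -0.0771 and *Hnrnpul1* to 0.17 and 0.17. Leaving out 1 library, *Hnrnpul1* lay between -0.0401 and 0.0109, above 0 without si-Control replicate 4, si-Control replicate 5 or si-*Fndc1* replicate 5.

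Replicate numbers did not pair the libraries: the correlations of deviations of same-numbered libraries were 0.02, -0.04, 0.06, -0.03 and -0.06, and 1 of 5 knockdown libraries correlated best with its own number. With the replicate block, 16 members were called (11 rising, 5 falling) against 26.4% of genes tested (13.3% rose, 13.1% fell), and 4 calls were lost (*Hnrnpab*, *Hnrnpr*, *Srsf7*, *Srsf11*). DESeq2 called 15 rising and 5 falling members against 37% of genes. Depth sets what can be said of *Srsf12*, and the spread between libraries what can be said of *Srsf1* and *Hnrnpa3*.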

Other observations

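In the table's coordinates, 20 rows overlapped 15 members, and 12 of these rows, over 8 members, reached a mean of 0.5 FPKM in a group, 3 on the same and 9 on the opposite strand. Reads of members and of their pseudogene copies cannot always be told apart, and the 3 pseudogene rows (*Hnrnpa1l2-ps*, *Hnrnpa1l2-ps2* and *Srsf3-ps*) had at most 0.370 FPKM on average. Within the summed hnRNP level, *Hnrnpa0* took 12.6% ± 0.361 in si-Control and 9.73% ± 0.265 in si-*Fndc1*, *Hnrnpa1* 12.6% ± 0.249 and 14.6% ± 0.335, and *Hnrnpa2b1* 6.45% ± 0.155 and 8.18% ± 0.164, while *Hnrnpab* took 19.4% ± 0.309 and 19.7% ± 0.276.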
